A study of Mus musculus with 32 samples.

Results

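The 9 genes of the mouse Hoxc cluster (Hoxc4, Hoxc5, Hoxc6, Hoxc8, Hoxc9, Hoxc10, Hoxc11, Hoxc12 and Hoxc13) were followed in RNA-seq of embryonic kidneys that carried tumor mutations of ENL, a reader of acylated histones encoded by Mllt1. They were found by gene identifier among the 55806 identifiers of the 4 deposited count tables. All 9 were present in each table. The 32 libraries fell into 11 groups. Whole E18.5 kidneys carried 1 copy of the Six2-TGC transgene with 2 wild-type Enl alleles (ENLWT, Six2-TGCtg/+;Enl+/+), with EnlT1/+ (Six2-ENLT1) or with EnlT3/+ (Six2-ENLT3), at 2 libraries each. Whole E18.5 kidneys with the Foxd1GC/+ allele carried Enl+/+ or EnlT1/+ (Foxd1-ENLT1), at 3 libraries each. Cells sorted for the tdTomato (tdT) reporter came from Six2-TGCtg/+ kidneys at E14.5 and E18.5 (3 ENLWT and 3 ENLT1 libraries a stage) and from Foxd1GC/+ kidneys at E18.5 (4 and 4).

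Six2-TGC, a bacterial artificial chromosome transgene, makes a GFP-Cre fusion in nephron progenitors, which switches on the mutant allele there and in the nephron that they form. The transgene also gives aberrant Six3 expression, and the control kidneys carried it too. Foxd1GC places the same fusion in the Foxd1 gene of stromal progenitors and removes 1 functional copy of Foxd1, again in controls and mutants. The mutations were heterozygous. T1 is an insertion in the YEATS domain, the pocket by which ENL binds acylated histone, and T3 is a deletion that replaces residues of the same domain. Sorted cells were all tdT+ cells of the kidneys, that is, a lineage and not 1 cell type. Six2, the defining gene of nephron progenitors, had a TMM-scaled CPM (counts scaled to library size) of 805.7 to 932.7 in sorted E14.5 ENLWT cells and of 10.6 to 17.4 in sorted Foxd1 ENLWT cells. The summed level of 10 stromal markers was 7241 to 9868 CPM in sorted Foxd1 ENLWT cells and 347.3 to 593 CPM in sorted E18.5 Six2 ENLWT cells. Total counts ran from 76510702 to 157266455 in the Six2 tables, from 67137194 to 79343015 in whole Foxd1 kidneys and from 2557443 to 3508381 in sorted Foxd1 cells, so that 1 count in the last stands for far more CPM. Mllt1 itself had 82.3 and 79.7 CPM in whole Six2-ENLT1 kidneys against 89.3 and 104.5 CPM in ENLWT, and counts per gene hold both alleles together.

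Hox genes encode transcription factors that give cells their position along the body axis. They lie in clusters in which genes at the 3′ end are used early and towards the head, and genes at the 5′ end late and towards the tail. ENL belongs to the elongation machinery that keeps Hox genes transcribed. Among Hox genes those near the 5′ end pattern the metanephric mesenchyme of the kidney and its stroma. In the mouse the Hoxc cluster lies on chromosome 15, on the forward strand, from 102921103 to 103036852 (GRCm38, the same assembly as mm10), a span of 115.8 kb, with Hoxc13 at its 5′ end and Hoxc4 at its 3′ end.

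All 9 proteins bind DNA through a homeodomain, and the bases that code for its recognition helix show how near the members are to each other as sequences to which reads are assigned. Each stretch below is exonic, codes for protein and was read from the annotated transcripts of GENCODE vM21. Capitals mark bases that differ from Hoxc10, the member with the highest level.
Hoxc13: tggttCcaGaatcgACgCGtgaaaGAGaaA
Hoxc12: tggttCcaGaaCcgGagaatgaaaAAGaaA
Hoxc11: tggtttcaGaaCAgGagaatgaaaGAAaaA
Hoxc10: tggtttcaaaatcgcagaatgaaactcaag
Hoxc9: tggtttcaGaaCcgGagGatgaaGAtGaaA
Hoxc8: tggttCcaGaatcgAagGatgaaGTGGaaA
Hoxc6: tggttCcaGaaCcgcCgCatgaaGTGGaaA
Hoxc5: tggttCcaGaaCcgcagGatgaaGTGGaag
Hoxc4: tggttCcaaaaCcgTCgTatgaaaTGGaag

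These stretches of 30 bases lie on the forward strand at chr15:102927351-102927380 in Hoxc13, chr15:102938449-102938478 in Hoxc12, chr15:102956621-102956650 in Hoxc11, chr15:102970989-102971018 in Hoxc10 and chr15:102984071-102984100 in Hoxc9. In the 3′ part they lie at chr15:102992712-102992741 in Hoxc8, chr15:103010895-103010924 in Hoxc6, chr15:103015377-103015406 in Hoxc5 and chr15:103035804-103035833 in Hoxc4. The other 8 genes differed from Hoxc10 at 8 to 10 of the 30 bases. Over whole transcripts, 6.4% of the 50-base words of Hoxc10, 3.92% of those of Hoxc5, 1.44% of those of Hoxc9 and 0.432% of those of Hoxc8 also occurred in another gene, and none of those of the other 5 members did. The annotated Hoxc5 gene starts within Hoxc10 (102967443 to 103017429) and shares 5.37% of its exon length with it, which is 8.7% of that of Hoxc10. Reads there cannot be assigned to 1 of the pair, and Hoxc5 and Hoxc10 values carry that limit. Levels are compared between genes below only per kb of exon length shared with no other gene.

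Hoxc10 was the most abundant member in each of the 11 groups, at 27.2 CPM per kb in whole Foxd1 ENLWT kidneys to 248.7 CPM per kb in sorted E18.5 Six2-ENLT1 cells, and it made up 44.0% to 62.0% of the summed level of the cluster. Hoxc6 came second in 8 groups and Hoxc9 in the 3 others, which were both genotypes of sorted E14.5 Six2 cells and sorted Foxd1-ENLT1 cells (22.3 CPM per kb for Hoxc9 against 21.6 for Hoxc6). That last pair did not differ beyond its spread. Hoxc5 was the lowest of the 7 genes from Hoxc4 to Hoxc11 in each group, at 1.57 to 8.79 CPM per kb. Hoxc12 and Hoxc13, at the 5′ end, were near silent, with 0 to 39 and 0 to 15 counts in any library. A count of 0 allows up to 0.0198 to 0.0230 CPM in whole Six2 ENLWT kidneys, from counting error only.

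The summed level of the 9 genes followed genotype in each cell source. It was 117.1 to 121.1 CPM per kb in sorted E14.5 ENLWT cells and 311.4 to 318.8 in ENLT1 cells. At E18.5 it was 115.9 to 148.3 CPM per kb in ENLWT and 449.9 to 465.8 in ENLT1 cells. In sorted Foxd1 cells it was 90.1 to 94.1 in ENLWT and 176.2 to 210.3 in ENLT1, and in whole Six2 kidneys it was 60.3 to 60.6 in ENLWT, 124.7 to 133.9 in Six2-ENLT1 and 113.0 to 119.2 in Six2-ENLT3. Whole Foxd1 kidneys had the smallest step, from 59.9 to 64.3 in ENLWT to 71.1 to 83.4 in ENLT1. In none of these did mutant and control libraries overlap. The 4 tables were scaled separately, so levels set side by side across them are descriptive.

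**Figure D1:**
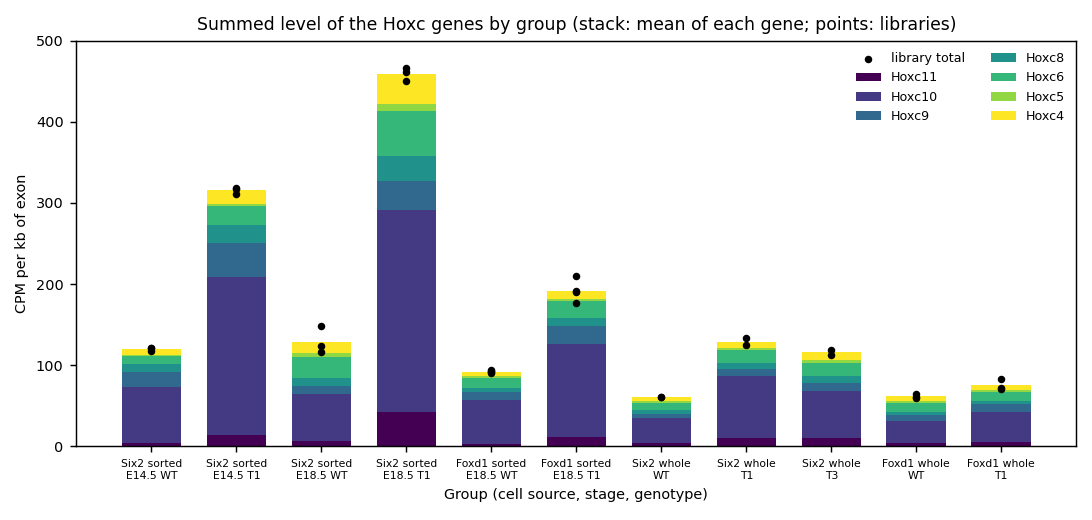
Stacked bars give the mean level of 7 Hoxc genes in CPM per kb of exon in each of the 11 groups, and black points give the total of all 9 genes in each library. Hoxc10 is the largest block in each group, and the tallest bar is sorted E18.5 Six2-ENLT1 cells, whose libraries lie between 449.9 and 465.8.

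The first question was which Hoxc genes the T1 mutation raised inside the nephron lineage, sorted by tdT. At E14.5 all 7 genes from Hoxc4 to Hoxc11 rose, by 1.52-fold to 3.21-fold, where 4.11% of the 22387 tested genes were called up (edgeR's quasi-likelihood test, adjusted p under 0.05 and fold change over 1.5). The median log2 fold change of these 7 was 1.27, against 0.00 over all tested genes. Hoxc12 and Hoxc13 were too low to test.

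Hoxc11, of the paralog group needed for the metanephric mesenchyme, and Hoxc10, of the group needed in the stroma, moved most. Hoxc11 had 7.60, 9.08 and 8.96 CPM in the 3 ENLWT libraries and 26.5, 28.3 and 26.5 CPM in the 3 ENLT1 libraries, a 3.21-fold rise (log2 1.68, SE 0.09, edgeR adjusted p = 3.56e-05). Hoxc10 had 120.2, 117.5 and 123.6 CPM in ENLWT and 341.4, 340.0 and 342.2 CPM in ENLT1. The gap between genotypes was far wider than the spread within either, and the rise was 2.86-fold (log2 1.52, SE 0.04, edgeR adjusted p = 8.07e-07). Hoxc9 rose from 41.8, 48.7 and 45.2 CPM to 97.2, 100.8 and 106.8 CPM. Hoxc8, a trunk gene, had 21.6, 30.4 and 26.1 CPM in ENLWT and 61.0, 62.0 and 62.7 CPM in ENLT1, so its spread was in the controls.

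At the 3′ end Hoxc6 rose from 25.9, 22.7 and 22.7 CPM to 54.5, 57.2 and 56.4 CPM, and Hoxc4 from 18.1, 17.9 and 15.7 CPM to 39.6, 47.0 and 43.1 CPM. Hoxc4 (log2 1.35, SE 0.09) and Hoxc6 (log2 1.25, SE 0.07) thus moved as far as Hoxc9 and Hoxc8. Hoxc5 had the smallest change, from 5.08, 5.66 and 6.97 CPM to 8.41, 9.35 and 8.77 CPM (log2 0.60, SE 0.13, edgeR adjusted p = 0.0194). This call sat close to the threshold: without any 1 of 5 of the 6 libraries (the exception being ENLWT replicate 3) it was lost, and the adjusted p without those ran from 0.0512 to 0.0768 (0.000314 to 0.0768 over all alternatives). In a fit of all 12 sorted Six2 libraries its log2 change of 0.58 fell just under the fold threshold.

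At E18.5 the same 7 genes all rose, by 2.06-fold to 5.99-fold, where 6.14% of 22685 tested genes were called up. Hoxc11 had 15.96, 12.4 and 14.9 CPM in ENLWT and 85.3, 84.7 and 88.1 CPM in ENLT1 (5.99-fold, log2 2.58, SE 0.09, edgeR adjusted p = 7.88e-10). Hoxc10 had 96.2, 87.3 and 113.8 CPM in ENLWT and 435.8, 418.1 and 446.6 CPM in ENLT1 (4.39-fold, log2 2.13, SE 0.09, edgeR adjusted p = 3.14e-09). Hoxc11 and Hoxc10 were the top of a slope that then fell gene by gene.

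Hoxc9 had 21.8, 22.3 and 28.7 CPM in ENLWT and 81.9, 94.8 and 81.5 CPM in ENLT1 (log2 1.83, SE 0.11). Hoxc8 had 23.2, 26.2 and 35.8 CPM in ENLWT and 88.8, 101.1 and 79.5 CPM in ENLT1 (log2 1.67, SE 0.14). Control replicate 3 was the highest of the 3 ENLWT libraries for both, and still lay far under each mutant library.

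Hoxc6, which is expressed in the thoracic region of the embryo, had 60.1, 57.4 and 71.2 CPM in ENLWT and 122.4, 142.1 and 130.6 CPM in ENLT1 (log2 1.07, SE 0.09). Hoxc5 had 12.9, 10.95 and 13.8 CPM in ENLWT and 23.4, 28.0 and 25.7 CPM in ENLT1 (log2 1.04, SE 0.11, edgeR adjusted p = 1.52e-05). Hoxc4 had 35.6, 35.1 and 43.1 CPM in ENLWT and 86.3, 104.3 and 95.9 CPM in ENLT1 (log2 1.34, SE 0.09). These 3 genes of the 3′ end formed the lower part of the slope, with Hoxc4 above its neighbours. Hoxc12 had 0 counts in the 3 ENLWT libraries and 18, 4 and 2 counts in ENLT1 and was not tested. Only ENLT1 replicate 1 stood out: without it the ENLT1 mean was 0.0384 CPM, under the 0.0396 CPM that 3 counts give in ENLWT, so no fold is given.

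**Figure D2:**
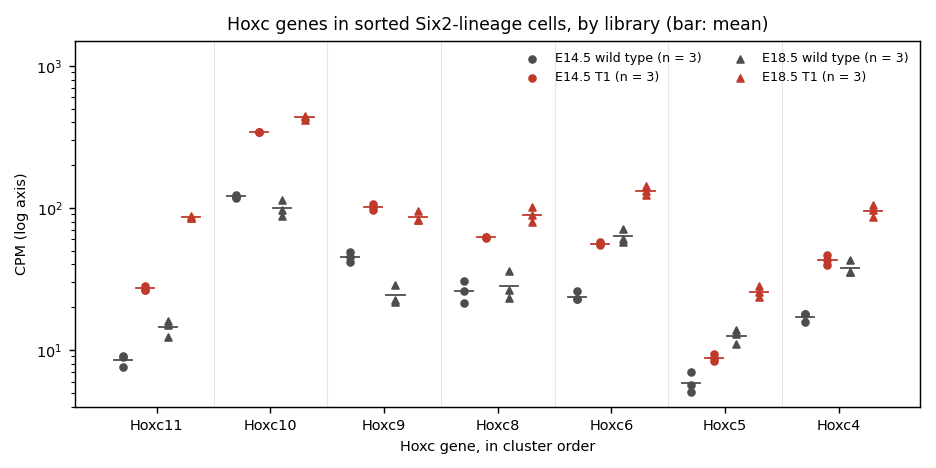
Points give the CPM (log axis) of each library for 7 Hoxc genes in sorted Six2-lineage cells, with circles for E14.5, triangles for E18.5, grey for ENLWT and red for ENLT1, and short bars for the mean of 3 libraries. Red and grey points of a stage do not overlap for any of the 7 genes, and Hoxc10 lies at 418.1 to 446.6 CPM in E18.5 ENLT1 cells.

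Other cell markers moved with genotype in these sorted cells, and their part in the Hoxc changes was not tested. At E14.5 the summed stromal markers were 511.6 to 663.7 CPM in ENLWT and 964.2 to 1885 CPM in ENLT1, and 8 of 10 were called up and 1 down, with none at 0 throughout. At E18.5 they were 347.3 to 593 CPM in ENLWT and 834.6 to 964.7 CPM in ENLT1 (6 of 10 up, 2 down). Nephron progenitor markers fell (6 of 7 at each stage), from 1077 to 1390 CPM to 402.3 to 512.2 CPM at E18.5. Red cell markers were 80.3 to 157.5 CPM in E18.5 ENLWT and 1162 to 1712 CPM in ENLT1 (3 of 4 up), and macrophage markers were 34.0 to 36.4 and 75.3 to 84.6 CPM (3 of 5 up). Nephron epithelium markers were 1903 to 2255 CPM in E18.5 ENLWT and 1375 to 1695 CPM in ENLT1 (1 up and 6 down of 9). Neural and glial markers were 23.2 to 31.6 and 51.8 to 55.9 CPM at E18.5 (1 of 6 up), and 24.3 to 29.0 and 35.8 to 40.0 CPM at E14.5 (2 of 6 up). Cartilage markers were 224.3 to 295.7 CPM in E18.5 ENLWT and 160.8 to 209.3 CPM in ENLT1 (3 of 5 down). Skeletal muscle markers, of a trunk tissue that uses Hoxc genes, summed to 8.31 to 10.4 CPM in E18.5 ENLWT and 13.6 to 15.9 CPM in ENLT1, with Myh8 at 0 in both. Hoxc10 had 90.8 to 95.2 CPM in sorted wild-type stroma and 418.1 to 446.6 CPM in E18.5 Six2-ENLT1 cells. These tables were scaled separately, so the pair is a description and no result is read from it.

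The second question was whether the change was tied to place in the cluster. Places are given as the distance from the homeobox of Hoxc4, which is 79.2 kb for Hoxc11, 64.8 kb for Hoxc10, 51.7 kb for Hoxc9, 43.1 kb for Hoxc8, 24.9 kb for Hoxc6 and 20.4 kb for Hoxc5. In sorted E18.5 cells the log2 change had a Pearson r of 0.90 with distance over the 7 genes, and at E14.5 0.57. Over sorted Foxd1 cells r was 0.80, in whole Six2-ENLT1 kidneys 0.84, in whole Six2-ENLT3 kidneys 0.55 and in whole Foxd1-ENLT1 kidneys 0.71. These are descriptions over 7 neighbouring genes of the same libraries, which are not independent points, and whole Six2-ENLT1 and Six2-ENLT3 share their controls.

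The mean log2 change of the 4 genes Hoxc11 to Hoxc8 was 2.05 in sorted E18.5 Six2 cells, and that of Hoxc6 to Hoxc4 was 1.15. At E14.5 these means were 1.41 and 1.07, and in sorted Foxd1 cells 1.34 and 0.60. They were 1.09 and 0.64 in whole Six2-ENLT1, 1.09 and 0.90 in whole Six2-ENLT3 and 0.33 and -0.03 in whole Foxd1-ENLT1 kidneys. Hoxc4, at the 3′ end, broke the slope in 6 of 6 comparisons, with a larger log2 change than Hoxc5, its neighbour. Hoxc5 had the lowest value of the 7 in each of the 6. The slope was also broken by other genes. In whole Six2-ENLT3 kidneys Hoxc10 (0.85) lay under Hoxc9 (1.01), and at E14.5 Hoxc8 (1.27) and Hoxc6 (1.25) lay over Hoxc9 (1.18). Hoxc8 (1.12) lay over Hoxc10 (1.09) and Hoxc9 (1.08) in sorted Foxd1 cells. It lay under Hoxc6 in whole Six2-ENLT1 (0.73 and 0.81) and whole Foxd1-ENLT1 kidneys (-0.18 and 0.03).

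**Figure D3:**
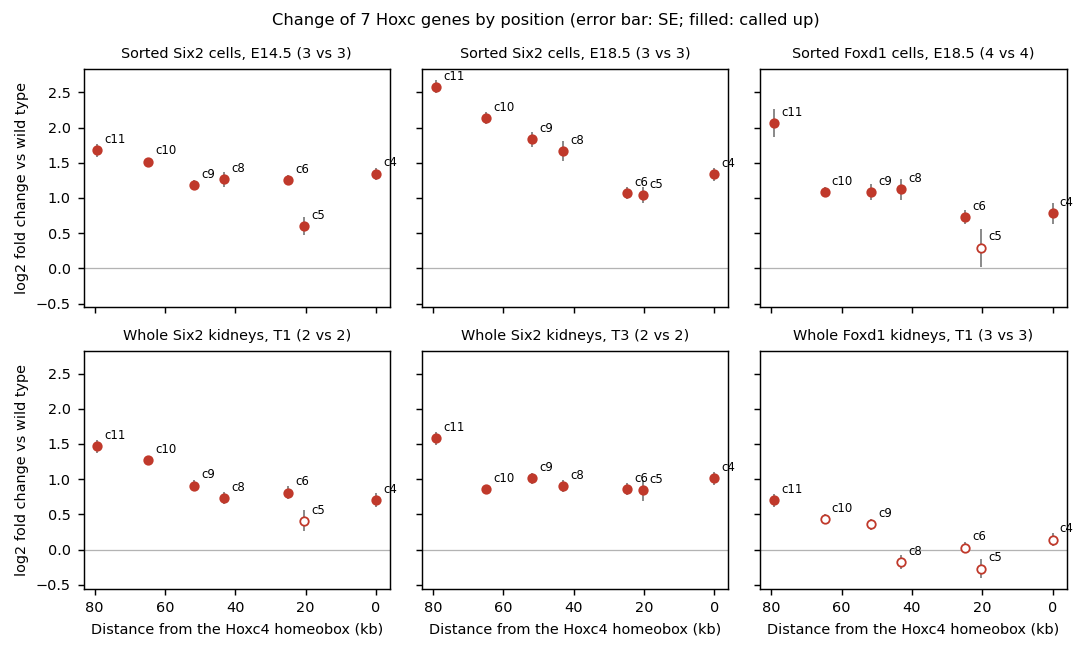
Each panel plots the log2 fold change against wild type of 7 Hoxc genes (error bars are SE) by the distance in kb from the Hoxc4 homeobox, for 6 comparisons, with filled points for genes called up. In sorted E18.5 Six2 cells the values fall from 2.58 for Hoxc11 to 1.04 for Hoxc5, in sorted Foxd1 cells from 2.06 to 0.29, and whole Foxd1 kidneys have only Hoxc11 called.

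Genes that flank the cluster were counted in the same tests. Of 23 protein-coding genes that start within 500 kb of it, 19 were tested in sorted E18.5 Six2 cells and 3 were called up, beside 6.14% of all tested genes, with a median log2 change of 0.06. Those 3 were Nckap1l (log2 2.83, SE 0.29), a gene of blood cells, Gpr84 (log2 1.63, SE 0.36), a receptor of myeloid cells, and Pde1b, a cyclic nucleotide phosphodiesterase (log2 1.26, SE 0.13), all beyond Hoxc4 at 273.8 to 466.2 kb. Smug1, a uracil DNA glycosylase and the nearest on the Hoxc4 side at 130.2 kb, had a log2 change of 0.28 (SE 0.09, edgeR adjusted p = 0.0408), under the fold threshold. Calcoco1, the nearest on the Hoxc13 side at 198.9 kb, had 0.04 (SE 0.07, edgeR adjusted p = 0.754). At E14.5 only Pde1b was called among 19 (log2 1.07, SE 0.14), beside 4.11% of all tested genes called up, and in the other comparisons of a mutant with its wild type 1 gene was called in each, which was Nckap1l in whole Six2-ENLT1 and Six2-ENLT3 kidneys and in sorted Foxd1 cells, and Npff, called down, in whole Foxd1 kidneys. For Npff no share of all genes called down is given, and no result is read from its call.

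The third question was how the cluster differed between E14.5 and E18.5 in the nephron lineage, and whether T1 altered that difference. The authors dissociated E14.5 kidneys with trypsin and E18.5 kidneys with collagenase II, so stage and dissociation cannot be told apart. In ENLWT, nephron progenitor markers summed to 1797 to 2099 CPM at E14.5 and 1077 to 1390 CPM at E18.5. Nephron epithelium markers summed to 610.6 to 744.2 and 1903 to 2255 CPM, and the part of these markers was not tested. Between E14.5 and E18.5 in ENLWT sorted cells 3 of the 7 genes were called up, where 24.8% of 25222 tested genes were (adjusted p under 0.01 and fold change over 2), and no result is read from that count. These were Hoxc6 (log2 1.40, SE 0.09), Hoxc4 (log2 1.14, SE 0.10) and Hoxc5 (log2 1.09, SE 0.13). Hoxc5 lost its call with scaling by library size only (log2 0.95) and without E14.5 ENLWT replicate 1 (log2 0.98). Hoxc9 went the other way, from 41.8 to 48.7 CPM at E14.5 to 21.8 to 28.7 CPM at E18.5 (log2 -0.90, SE 0.10, edgeR adjusted p = 1.52e-06), short of the 2-fold threshold except with library size only (log2 -1.04). Hoxc10 had a log2 change of -0.28 (SE 0.07), Hoxc8 one of 0.13 (SE 0.15) and Hoxc11 one of 0.76 (SE 0.09, edgeR adjusted p = 4.36e-06), short of 2-fold.

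In ENLT1 cells 4 of the 7 genes were called up between the stages, where 24.4% of tested genes were, and no result is read from this count either: Hoxc11 (log2 1.67, SE 0.09), Hoxc5 (log2 1.54, SE 0.13), Hoxc6 (log2 1.23, SE 0.08) and Hoxc4 (log2 1.14, SE 0.10). Hoxc11 had 26.5 to 28.3 CPM at E14.5 and 84.7 to 88.1 CPM at E18.5. Hoxc10 had a log2 change of 0.34 (SE 0.08) and Hoxc9 one of -0.24 (SE 0.10). The share of Hoxc9 in the cluster's summed level fell in both genotypes, from 15.5% to 7.72% in ENLWT and from 13.2% to 7.71% in ENLT1, while that of Hoxc10 was 57.7% and 44.0% in ENLWT and 62.0% and 54.2% in ENLT1.

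The test of the difference itself, the stage by genotype interaction, called 3 of the 7 genes, each with a larger T1 change at E18.5, where 3.94% of tested genes were called in that direction (adjusted p under 0.05). The log2 interaction was 0.91 for Hoxc11 (SE 0.13, edgeR adjusted p = 0.000684), 0.66 for Hoxc9 (SE 0.14, edgeR adjusted p = 0.0108) and 0.63 for Hoxc10 (SE 0.11, edgeR adjusted p = 0.00238). These 3 are the neighbours Hoxc9 to Hoxc11. Hoxc8 had 0.41 (SE 0.21), Hoxc5 0.45 (SE 0.18), Hoxc6 -0.17 (SE 0.12) and Hoxc4 0.00 (SE 0.14), none of them called. Hoxc13, which reached the filter in this fit of 12 libraries, had 0 to 15 counts and was not called in any of these tests (edgeR adjusted p = 0.744 for the interaction).

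**Figure D4:**
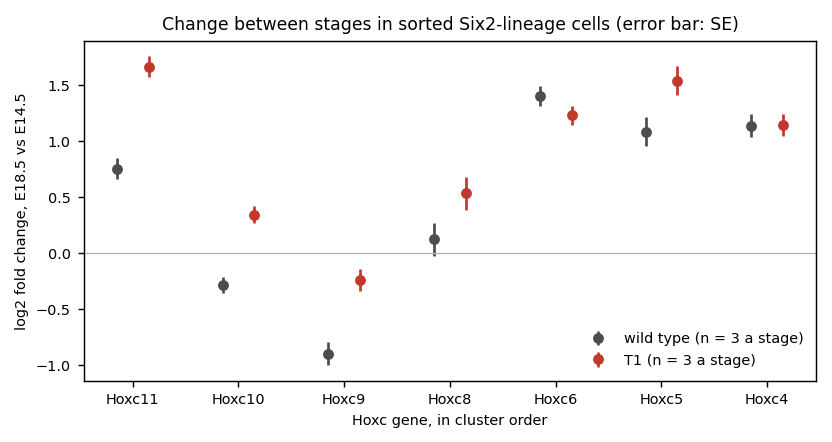
Points give the log2 fold change from E14.5 to E18.5 of 7 Hoxc genes in sorted Six2-lineage cells (error bars are SE), grey for ENLWT and red for ENLT1, 3 libraries a stage. Red lies above grey for Hoxc11, Hoxc10 and Hoxc9, whose interaction was called, and also for Hoxc8 and Hoxc5, whose interaction was not. Red lies under grey for Hoxc6, and the pair coincides at Hoxc4 (1.14 in both).

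The fourth question was whether both mutations act alike on the cluster in whole kidneys of the Six2 crosses. In whole kidneys fewer cells of a type and less RNA per cell cannot be told apart. In Six2-ENLT1 kidneys 6 of the 7 genes rose (all but Hoxc5), where 2.88% of 23931 tested genes were called up, and in Six2-ENLT3 kidneys 7 of 7 rose, where 4.34% were. Hoxc11 again moved most. It had 7.24 and 7.32 CPM in ENLWT, 20.8 and 19.5 CPM in Six2-ENLT1 (2.77-fold, log2 1.47, SE 0.09, edgeR adjusted p = 8.85e-05) and 20.6 and 23.0 CPM in Six2-ENLT3 (2.99-fold, log2 1.58, SE 0.09, edgeR adjusted p = 5.35e-05).

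Hoxc10 had 54.4 and 56.9 CPM in ENLWT, 139.8 and 127.8 CPM in Six2-ENLT1 and 100.8 and 100.4 CPM in Six2-ENLT3. Against ENLWT it was 2.40-fold higher in Six2-ENLT1 (log2 1.27, SE 0.06) and 1.81-fold higher in Six2-ENLT3 (log2 0.85, SE 0.06). Hoxc9 had 11.98 and 11.6 CPM in ENLWT, 22.03 and 22.1 CPM in Six2-ENLT1 and 22.9 and 24.7 CPM in Six2-ENLT3. Hoxc4 had 12.2 and 12.4 CPM in ENLWT, 21.1 and 18.9 CPM in Six2-ENLT1 and 23.1 and 26.4 CPM in Six2-ENLT3. Of the mutants, Six2-ENLT3 thus had the higher mean for Hoxc4 and the lower one for Hoxc10.

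Hoxc8 (log2 0.73 in T1 and 0.90 in T3, SE 0.08 for both) and Hoxc6 (0.81 and 0.86, SE 0.09 for both) lay between. Hoxc5 had 5.78 and 4.39 CPM in ENLWT, 7.21 and 6.26 CPM in Six2-ENLT1 (log2 0.41, SE 0.15, edgeR adjusted p = 0.123) and 9.01 and 9.21 CPM in Six2-ENLT3 (log2 0.84, SE 0.15, edgeR adjusted p = 0.00728). Without ENLWT replicate 1 the T1 value was 0.62 and was called (edgeR adjusted p = 0.019), and without ENLWT replicate 2 it was 0.24 (edgeR adjusted p = 0.259). Over all alternatives the adjusted p of Hoxc5 ran from 0.0175 to 0.456. The control libraries of Hoxc5 were the ones that spread.

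Hoxc12 had 0 counts in both ENLWT libraries, 14 and 7 in Six2-ENLT1 and 22 and 39 in Six2-ENLT3. The mutant means were 3.47-fold and 12.9-fold the level that 3 counts a library give in ENLWT (2.78-fold and 9.60-fold without the higher mutant library). These folds allow for counting error in the controls only. Hoxc12 passed the filter only through the mutant libraries, so its test is not reported and it enters no count of called genes. Hoxc13, next to it at the end of the cluster, had 6 and 1 counts in ENLWT, 14 and 4 in Six2-ENLT1 and 5 and 8 in Six2-ENLT3, with overlap, and was too low to test. Per length, Hoxc12 reached a mean of 0.267 CPM per kb in Six2-ENLT3 kidneys, where Hoxc10 had 57.7 CPM per kb.

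The direct test of Six2-ENLT3 against Six2-ENLT1 called 0 of the 7 genes, where 0.00418% of all tested genes were called (edgeR's quasi-likelihood test, adjusted p under 0.05 and fold change over 1.5). At an unadjusted p under 0.05 there were 3, which were Hoxc10, Hoxc4 and Hoxc5, and edgeR's exact test and DESeq2 also called 0 with that fold threshold. Hoxc10 was lower in Six2-ENLT3 (log2 -0.41, SE 0.06, edgeR adjusted p = 0.299), and both its T3 libraries lay under both T1 libraries. For this value DESeq2 gave an adjusted p of 8.92e-05 and edgeR's exact test one of 0.000743, and over all alternatives it ran from 4.84e-06 to 1. Hoxc4 (log2 0.31, SE 0.10), Hoxc5 (0.43, SE 0.15), Hoxc8 (0.17, SE 0.08) and Hoxc9 (0.11, SE 0.08) were higher in both T3 than in both T1 libraries. None of these was called. Hoxc11 and Hoxc6 had differences of 0.11 and 0.05 (SE 0.09 for both) and overlapped between the mutants.

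These whole kidneys also differed in other ways. The Y-linked Ddx3y was at 0 CPM in both Six2-ENLT3 libraries and at 122.5 and 125.8 CPM in both Six2-ENLT1 libraries, so sex and mutation cannot be told apart between the mutants. In ENLWT it was at 0 in the one library and at 120.4 CPM in the other. In ENLWT replicate 2 skeletal muscle markers summed to 56.9 CPM, against 5.60 to 9.19 CPM in the 5 other libraries. Without that library 6 of the 7 Hoxc genes in Six2-ENLT1 and 7 in Six2-ENLT3 were called up.

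Nephron progenitor markers were 320.2 to 378.1 CPM in ENLWT, 182.7 to 186.1 in Six2-ENLT1 and 154.6 to 175.5 in Six2-ENLT3 (6 of 7 down in both). Nephron epithelium markers were 1710 to 1842 CPM in ENLWT, 793.2 to 859.6 in Six2-ENLT1 (5 of 9 down) and 707.8 to 751.9 in Six2-ENLT3 (6 of 9 down). Macrophage markers were 101.5 to 102.3 CPM in ENLWT, 139.3 to 146.6 in Six2-ENLT1 and 144.7 to 153.4 in Six2-ENLT3 (4 of 5 up in both). Stromal markers, with 1 and 3 of 10 called up, were 5011 to 6171 CPM in ENLWT, 5377 to 5597 in Six2-ENLT1 and 5748 to 6105 in Six2-ENLT3. The part of sex and of these markers in the Hoxc values was not tested. No share of all genes called down is set beside these marker counts, and no result is read from them.

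The fifth question was whether the cluster answered in the stroma as it did in the nephron lineage. In sorted Foxd1 cells 6 of the 7 genes rose (all but Hoxc5), where 3.63% of 12717 tested genes were called up. Hoxc11 had 7.57, 4.42, 4.88 and 5.10 CPM in ENLWT, from 12 to 27 counts, and 21.6, 25.8, 19.3 and 26.7 CPM in ENLT1 (4.18-fold, log2 2.06, SE 0.20, edgeR adjusted p = 1.04e-06). Hoxc10 had 90.8, 94.3, 95.2 and 95.2 CPM in ENLWT and 201.5, 221.4, 180.9 and 192.3 CPM in ENLT1 (2.12-fold, log2 1.09, SE 0.08, edgeR adjusted p = 3.63e-08). Control libraries were tight for Hoxc10, and replicate 1 was the high one for Hoxc11.

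Hoxc9 had 28.0, 29.2, 21.6 and 22.2 CPM in ENLWT and 52.2, 50.3, 56.7 and 57.4 CPM in ENLT1 (log2 1.08, SE 0.11). Hoxc8 had 13.2, 16.2, 11.8 and 9.84 CPM in ENLWT and 27.9, 28.5, 25.4 and 30.6 CPM in ENLT1 (log2 1.12, SE 0.15). The size of these changes was close to that of Hoxc10. Hoxc6 had 31.9, 29.8, 30.1 and 33.9 CPM in ENLWT and 47.7, 58.4, 47.6 and 54.8 CPM in ENLT1 (log2 0.73, SE 0.10). Hoxc4 had 16.5, 16.8, 17.1 and 12.03 CPM in ENLWT and 28.7, 30.9, 23.6 and 24.8 CPM in ENLT1 (log2 0.78, SE 0.15, edgeR adjusted p = 0.00164). Hoxc5, at 12 to 23 counts in any library, overlapped between genotypes (log2 0.29, SE 0.27, edgeR adjusted p = 0.562), and with an SE of that size a change like that of E14.5 Six2 cells was not detectable at this depth.

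Among other cell markers in these sorted cells, macrophage markers rose (4 of 5 up), from 48.1 to 110.1 CPM in ENLWT to 106.2 to 144.9 CPM in ENLT1, and their part in the Hoxc values was not tested. Stromal markers summed to 7241 to 9868 CPM in ENLWT and 7390 to 8359 CPM in ENLT1 (1 up, 3 down of 10). Here too no share called down is given, and the falls are a description. Muscle markers summed to 7.29 to 12.4 and 9.08 to 13.4 CPM, with Myh8 and Myod1 at 0 in both genotypes.

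In whole Foxd1 kidneys 1 of the 7 genes was called up, where 2.65% of 20145 tested genes were. This was Hoxc11, with 6.66, 7.33 and 7.64 CPM in ENLWT and 11.99, 12.2 and 10.9 CPM in ENLT1 (1.62-fold, log2 0.70, SE 0.10, edgeR adjusted p = 0.000115). Hoxc10 had 44.3, 47.4 and 50.4 CPM in ENLWT and 72.1, 60.1 and 59.98 CPM in ENLT1 (log2 0.44, SE 0.07, edgeR adjusted p = 0.000703). Hoxc9 had 19.1, 19.8 and 18.9 CPM in ENLWT and 27.6, 22.2 and 24.5 CPM in ENLT1 (log2 0.36, SE 0.08, edgeR adjusted p = 0.00332). Neither overlapped between genotypes, and both changed by less than 1.5-fold. Without the fold threshold 3 Hoxc genes passed in this comparison, where 33.4% of tested genes did, so this count is near the background.

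Hoxc8, Hoxc6, Hoxc5 and Hoxc4 overlapped between genotypes there and were not called. Their log2 changes were -0.18 for Hoxc8 (SE 0.10), 0.03 for Hoxc6 (SE 0.07), -0.27 for Hoxc5 (SE 0.13) and 0.14 for Hoxc4 (SE 0.09). Nephron progenitor markers were 500 to 535.4 CPM in ENLWT and 755.0 to 925.0 CPM in ENLT1 (5 of 7 up), nephron epithelium markers were 1922 to 2059 and 1227 to 1521 CPM (2 of 9 down), and their part was not tested. No share of all genes called down is set beside the falls, and no result is read from them. In ENLT1 replicate 1 skeletal muscle markers summed to 111.7 CPM against 5.31 to 24.0 CPM in the 5 others. That library had the highest level of its group for 6 of the 7 genes (all but Hoxc11), and leaving out any 1 library kept 1 Hoxc gene called.

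**Figure D5:**
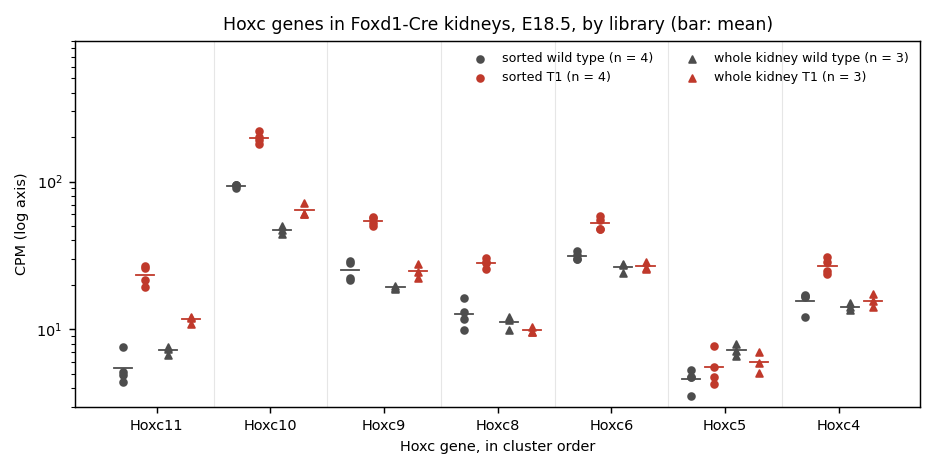
Points give the CPM (log axis) of each library for 7 Hoxc genes in E18.5 Foxd1GC/+ kidneys, with circles for sorted tdT+ cells, triangles for whole kidneys, grey for ENLWT and red for ENLT1, and short bars for the mean. Sorted libraries separate by genotype for each gene but Hoxc5, whereas in whole kidneys Hoxc8, Hoxc6, Hoxc5 and Hoxc4 overlap.

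Between lineages, sorted E18.5 ENLWT Foxd1 cells had less of 5 of the 7 genes than sorted Six2 ENLWT cells. In this joint fit 38% of 14869 tested genes were called down. The count filter took the libraries of both lineages together, so genes too low in either lineage alone could be kept. They were Hoxc5 (log2 -1.27, SE 0.19), Hoxc11 (-1.17, SE 0.17), Hoxc4 (-1.08, SE 0.13), Hoxc8 (-0.93, SE 0.18) and Hoxc6 (-0.80, SE 0.10). Hoxc10 (0.12, SE 0.09) and Hoxc9 (0.27, SE 0.13) were not called. Over the alternatives other than leaving out each library, Hoxc10 ran from -0.215 to 0.158 and Hoxc9 from -0.062 to 0.308, so neither kept its sign. Lineage and sequencing run, with read length, cannot be told apart here. Ddx3y was 82.4 to 111.8 CPM in sorted Foxd1 libraries and 0 to 143.1 CPM in sorted E18.5 Six2 libraries, so the sexes were not matched.

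The interaction of lineage with genotype was smaller for 3 of the 7 genes in the stroma, where 7.63% of tested genes were called in that direction. It was -1.07 for Hoxc10 (SE 0.12, edgeR adjusted p = 2.01e-06), -0.77 for Hoxc9 (SE 0.17, edgeR adjusted p = 0.0025) and -0.57 for Hoxc4 (SE 0.18, edgeR adjusted p = 0.033), on the log2 scale. The Hoxc4 call was lost without any 1 of 9 of the 14 libraries (Six2 ENLWT replicates 1 and 2, Six2 ENLT1 replicates 2 and 3, Foxd1 ENLWT replicates 1, 2 and 3, Foxd1 ENLT1 replicates 3 and 4), with adjusted p of 0.0546 to 0.0716 in edgeR. Hoxc11, with the largest change in both lineages, had -0.53 (SE 0.23, edgeR adjusted p = 0.131), and Hoxc8, Hoxc6 and Hoxc5 had -0.56, -0.36 and -0.76 with adjusted p of 0.123, 0.0974 and 0.0743 in the same edgeR test. Without Six2 ENLWT replicate 3, the highest of its group for each of the 7 genes but Hoxc11, 5 genes were called.

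Between the whole kidneys of the Cre lines, 6 of the 7 genes had a smaller T1 change in the Foxd1 cross, where 3.55% of 22826 tested genes were called in that direction. The log2 interaction ran from -0.56 for Hoxc9 (SE 0.12, edgeR adjusted p = 0.0115) to -0.93 for Hoxc8 (SE 0.14, edgeR adjusted p = 0.000915). Hoxc11 had -0.79 (SE 0.13), Hoxc10 -0.85 (SE 0.12), Hoxc6 -0.80 (SE 0.11) and Hoxc4 -0.58 (SE 0.14). Hoxc5 had -0.70 (SE 0.22, edgeR adjusted p = 0.0661) and was called without Six2 ENLWT replicate 1 or Foxd1-ENLT1 replicate 1 (edgeR adjusted p = 0.0248 and 0.0324), by DESeq2 (adjusted p = 0.023) and with no low-count filter (edgeR adjusted p = 0.00899). Over all alternatives its adjusted p ran from 0.00899 to 0.231. The call of Hoxc9 was lost without Six2-ENLT1 replicate 2 (edgeR adjusted p = 0.0554), and that of Hoxc4 without Six2-ENLT1 replicate 1 or Foxd1 ENLWT replicate 1 (edgeR adjusted p = 0.114 and 0.0553). The Cre line goes with the sequencing run and with sex (Ddx3y was at 0 in the 6 whole Foxd1 libraries and at 122.5 and 125.8 CPM in Six2-ENLT1), which cannot be told apart.

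Hox proteins bind DNA with cofactors of the TALE class. Of 9 TALE genes, 1 was called up at E14.5 in sorted Six2 cells, which was Meis1 (log2 0.64, SE 0.08), beside 4.11% of all tested genes. At E18.5 Meis1 was up (log2 1.26, SE 0.11), beside 6.14% of all tested genes, and Pknox2 down (log2 -0.75, SE 0.10). Meis1 is also among the stromal markers given above, so its calls stand in both lists. Of 8 tested in sorted Foxd1 cells, Meis2 was up (log2 0.85, SE 0.08), where 3.63% of all tested genes were. In whole Six2 kidneys 0 of 9 were called in either mutant by edgeR's quasi-likelihood test, its exact test or DESeq2, with 3 in Six2-ENLT1 and 4 in Six2-ENLT3 at an unadjusted p under 0.05, and in whole Foxd1 kidneys Meis2 was up (log2 0.63, SE 0.05).

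Of 8 kidney genes linked to Hox function, Six2, Eya1, Osr1 and Itga8 were called down in sorted Six2 cells at both stages, where 2.28% of all tested genes were at E14.5 and 5.54% at E18.5. Six2, Eya1 and Osr1 are also among the nephron progenitor markers given above, so their calls stand in both lists. Six2, the self-renewal factor of nephron progenitors, had a log2 change of -0.84 (SE 0.11) at E14.5 and -1.29 (SE 0.11) at E18.5. Itga8, an integrin of the mesenchyme, had -1.06 (SE 0.08) and -0.97 (SE 0.08). Pax2 was called up at E18.5 (log2 0.60, SE 0.08). Within sorted Foxd1 cells Gdnf, the growth factor that drives branching, was down (log2 -1.05, SE 0.15). Osr1 was up there (log2 0.84, SE 0.17), where 3.63% of all tested genes were. In whole Six2 kidneys Six2, Gdnf, Eya1 and Osr1 were down in both mutants. In whole Foxd1 kidneys Six2, Eya1 and Osr1 were up (log2 0.71 to 0.78), where 2.65% of all tested genes were. For whole Six2 kidneys and sorted Foxd1 cells no share of all genes called down is given here. No result is read from the falls there.

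The other clusters give the setting. In sorted E18.5 Six2 cells 11 of 11 tested Hoxa genes, 8 of 9 Hoxb genes and 8 of 8 Hoxd genes were called up, with median log2 changes of 2.02, 1.36 and 1.66 beside 1.67 for the 7 Hoxc genes. Sorted Foxd1 cells had 8 of 8, 0 of 7 and 2 of 6 called up, with medians of 1.88, 0.23 and 0.12 beside 1.08. Of the 7 Hoxb genes, 0 had an unadjusted p under 0.05 in edgeR's quasi-likelihood test, and edgeR's exact test and DESeq2 called 0. No difference between clusters was tested.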

How the data were processed

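Whole kidneys and sorted tdT+ cells of mice were profiled by RNA-seq of polyadenylated RNA. The authors prepared whole kidneys with a stranded kit and sorted cells with the SMART-Seq v4 kit, read 2 × 50 bases (Six2 crosses) or 2 × 75 bases (Foxd1 crosses), aligned reads to mm10 with HISAT2 and counted them with HTSeq regardless of strand. The deposited values are raw counts per gene, without normalization. The annotation release is not given in the sources used here. Identifiers were matched to gene names of the references used here for 55536 of 55806.

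Groups and replicate numbers came from sample titles. Nothing in the labels says that libraries came from separate litters, so p-values measure the spread between these libraries. Genes were kept with filterByExpr (minimum count 10, minimum total 15), scaled by TMM factors (0.912 to 1.06) and tested with the quasi-likelihood test of edgeR 4.0.16 in R 4.3.3, adjusted by Benjamini-Hochberg over all tested genes. The 6 whole Six2 libraries were fitted together, as were the 12 sorted Six2 libraries for stages. Interactions were called at an adjusted p under 0.05 alone. CPM were scaled within each table, and levels per kb used exon length shared with no other gene. Limits at 3 counts cover counting error only. Each fit was tested on simulated counts. Of 33 pairs of libraries of a group, none agreed within sampling noise (chi-square per degree of freedom at least 1.36).

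The members, lists and tests were chosen with earlier results of these data known. Named genes were the 9 Hoxc genes, protein-coding genes within 500 kb, 9 TALE cofactors, 8 kidney genes linked to Hox function, Mllt1, and the 5 genes most like the cluster. Of the flanking, TALE and kidney genes, those called were named, except for a result that is not reported here. Alternatives were edgeR's exact test, DESeq2 1.42.0, RLE factors, library size only, other count filters, other fold thresholds, a replicate block, smaller or larger fits and leaving out each library. Figures were drawn with matplotlib 3.10.9.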

Additional observations from a re-analysis of the deposited data

Results flagged for a closer look

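Several T1 effects on Hoxc genes differed between stages, lineages or Cre lines by an interaction term in edgeR's quasi-likelihood test. Between stages in sorted Six2 cells the log2 difference was 0.91 for Hoxc11, 0.63 for Hoxc10 and 0.66 for Hoxc9, each larger at E18.5 (3 of 7 genes). Between lineages at E18.5 it was -1.07 for Hoxc10, -0.77 for Hoxc9 and -0.57 for Hoxc4, each smaller in the stroma. Between whole kidneys of the Cre lines it was -0.79 for Hoxc11, -0.85 for Hoxc10, -0.56 for Hoxc9, -0.93 for Hoxc8, -0.80 for Hoxc6 and -0.58 for Hoxc4, each smaller in the Foxd1 cross. Hoxc10 and Hoxc9 were called in all 3 interactions. The stage and lineage interactions both use the sorted E18.5 Six2 libraries, so their calls are not independent. Stage also goes with the method of dissociation. The lineage and Cre line interactions are confounded with the sequencing run.

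Among 14 tests of the highest or lowest library in groups of 4, 1 library stood apart. Hoxc4 in sorted Foxd1 ENLWT replicate 4 had 12.03 CPM (33 counts) against 16.5 to 17.1 CPM in the other 3, a gap of 0.891 of the range of the group. Chance flags about 1 group in 20.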

How the results depend on the processing

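Among counts of the 7 genes from Hoxc4 to Hoxc11 called, 225 values under an alternative stayed within 1.5 times the main one, 5 rose above and 4 fell below. With a fold change over 2 in place of 1.5, the count was 2 in whole Six2-ENLT1, 3 in whole Six2-ENLT3, 0 in whole Foxd1-ENLT1 and 3 between wild-type lineages. Without a fold threshold it was 3 in whole Foxd1-ENLT1 kidneys and 6 for wild-type cells between stages, and 5 for the latter with adjusted p under 0.05 and 1.5-fold. The lineage interaction called 5 with library size only. Fewer or more genes pass these thresholds by construction.

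With 1 library left out (a lone library of a group then assumed to vary as the others), the count of Hoxc genes called was 6 to 7 in whole Six2-ENLT1, 7 in Six2-ENLT3, 6 to 7 at E14.5, 7 at E18.5, 6 in sorted and 1 in whole Foxd1, 2 to 3 and 4 between stages in ENLWT and ENLT1, 3 for the stage interaction, 2 to 5 for the lineage interaction, 5 between wild-type lineages and 5 to 7 for the Cre line interaction. Over single genes, 1466 values stayed on their side of the thresholds, 12 gained a call, 20 lost it and 0 reversed. The cause was not tested.

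Same-numbered libraries did not pair (correlation of deviations -0.08 to 0.14). With the replicate block the counts were 6, 7 and 0 in whole Six2 kidneys, 7 and 7 in sorted Six2 cells, 6 and 1 in sorted and whole Foxd1, and 3, 4, 3, 3, 5 and 6 for stages, interactions and lineages, as without it. Depth limits Hoxc5, Hoxc12 and Hoxc13 in sorted Foxd1 cells most.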

Other observations

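The 5 genes outside the Hox clusters whose level was most like the mean of the 7 Hoxc genes were picked by Pearson r over 32 libraries, on log2 CPM centred within each table, among 12538 genes tested in all tables. They were Abi3bp (r = 0.95), a matrix protein gene, Nsg2 (0.92), a gene of neuronal endosomes, Lrrn3 (0.92), a leucine-rich repeat membrane protein gene, Slc22a3 (0.91), an organic cation transporter gene, and Nog (0.90), which encodes the BMP antagonist Noggin. They were chosen for this likeness, so their levels are a description. Abi3bp had 8.49 ± 1.30 CPM (SD, n = 3) in sorted E14.5 ENLWT and 20.4 ± 1.66 in ENLT1 cells, and at E18.5 15.9 ± 1.90 and 46.4 ± 4.47 CPM. In sorted Foxd1 cells it had 5.11 ± 0.641 and 9.41 ± 2.18 CPM (n = 4). In whole Six2 kidneys Abi3bp had 8.20 ± 0.858 CPM in ENLWT, 17.4 ± 1.33 in Six2-ENLT1 and 17.8 ± 0.293 in Six2-ENLT3 (n = 2), and in whole Foxd1 kidneys 5.77 ± 0.478 and 5.49 ± 0.531 CPM (n = 3), where the genotypes overlapped. Nog had 7.44 ± 0.934 CPM in sorted E18.5 ENLWT and 18.2 ± 1.39 in ENLT1 cells (n = 3).

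Hotair, a long noncoding RNA transcribed on the other strand between Hoxc11 and Hoxc12, was singled out after its values were seen. It had 1.84 ± 0.415 CPM in sorted E18.5 Six2 ENLWT cells and 7.06 ± 0.986 in ENLT1 cells (n = 3, log2 1.95, SE 0.19, edgeR adjusted p = 7.33e-06). At E14.5 its log2 value was 0.86 and not called (edgeR adjusted p = 0.102). In whole Six2 kidneys it had a log2 change of 1.86 (SE 0.26) with T1 and 1.57 (SE 0.26) with T3, both called up. In whole Foxd1 kidneys Hotair had 0.04 (SE 0.48), and in sorted Foxd1 cells, with 0 to 6 counts, it was not tested. Counts without strand cannot tell an antisense RNA from its partner where the pair overlaps.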
